A study of Homo sapiens with 4 samples.

Results

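Selenoprotein messages are the mRNAs whose proteins carry selenocysteine, an amino acid inserted at a UGA codon that elsewhere ends translation. Reading UGA this way needs a stem-loop in the 3′ UTR, called SECIS, the protein SECISBP2 that binds it, and the elongation factor EEFSEC that delivers the selenocysteine tRNA. Most known members of the family are enzymes of thiol and peroxide chemistry. Here 10 of them were followed, GPX1, GPX4, TXNRD1, TXNRD2, SELENOF, SELENOH, SELENOK, SELENOT, SELENOW and SELENON, taken by symbol from 61543 genes in the count table, and each matched 1 gene.

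The RNA came from medium conditioned by HEK293T cells, a line derived from human embryonic kidney. The cells released nanocages, shells that carry bound RNA out of the cell, built from EPN24 fused to Cas13d, an RNA-binding CRISPR protein, in 1 group and labelled EPN24 in the other. Each group had 2 libraries. The question is to which RNAs Cas13d binds across the transcriptome. Both groups share the cell line, the medium with fetal bovine serum, and the clearing of the supernatant. How the constructs were delivered, and whether a guide RNA was present, is not given in the sources used here. Sequencing took all RNA of the cleared supernatant, whether inside a shell or free. Supernatant of cells that make no nanocage was not analysed here.

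Depth differed between the groups. Gene counts came to 5097332 and 4863449 with Cas13d and to 1830860 and 1903492 without. Synthetic ERCC RNA, added in equal amount to each supernatant, took 1.66% to 1.73% of counts with Cas13d and 19.6% to 20.9% without. Levels below are TMM-scaled CPM and counts per 100000 ERCC counts. TMM-scaled CPM divides each count by the effective library size, which TMM moves away from the total count, so it is not a plain share of the counts. Counts per 100000 ERCC counts measure amount per volume. Moving from TMM to ERCC scaling raised the median log2 fold change over the tested genes by 3.34, from -0.96 to 2.38. A floor of 3 counts was worth 0.721 and 0.755 CPM with Cas13d, and 1.34 and 1.42 CPM without. Of 8 HEK293T markers 8 had counts in both groups. The 6 blood cell markers summed to 2.40 and 3.78 CPM with Cas13d against 18.3 and 20.4 CPM without, and the 6 hepatocyte markers to 8.89 and 5.03 against 46.8 and 38.8 CPM. HBA1 was at 0 in all 4 libraries, and the part of other cell types in the results was not tested. No label ties the replicates to separate cultures, so a p-value here covers only how far these libraries spread, and that spread may be technical. Intervals and floors cover counting error only, and 66.8% to 72.4% of whole counts were even, so the mates of a read pair may have been counted singly.

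The codon that defines the family is shown for the members on which the results turn: the pairs of glutathione peroxidases and thioredoxin reductases, and the messages with the highest and the lowest fold change. The sequences are from GENCODE release 29 transcripts (GRCh38), on the sense strand from 5′ to 3′, with the selenocysteine codon in capitals and 12 bases on each side. The SELENON transcript has 2 annotated selenocysteine codons, and the one shown is codon 462 of 590.
GPX1: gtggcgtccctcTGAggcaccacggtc
GPX4: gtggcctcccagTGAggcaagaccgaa
TXNRD1: caggctggctgcTGAggttaagcccca
TXNRD2: gtgacaggctgcTGAgggtaagcgcca
SELENON: gaccagtcctgcTGAggttcagggcgg
SELENOF: gaagtttgtggaTGAaaattgggaagg
The codons lie at chr3:49358132-49358134 (minus strand), chr19:1105403-1105405 (plus), chr12:104348413-104348415 (plus), chr22:19877111-19877113 (minus), chr1:25812789-25812791 (plus) and chr1:86880690-86880692 (minus). Of the 24 flanking bases, GPX1 and GPX4 share 16, TXNRD1 and TXNRD2 share 18, and SELENON and SELENOF share 9. In the annotated coding sequences the codon is number 49 of 203 in GPX1 and 73 of 197 in GPX4. It is the last but 1 in both reductases, number 498 of 499 in TXNRD1 and 523 of 524 in TXNRD2. For all 10 members this codon is inside an exon that the authors counted. In 8 of the 10 it lies at least 50 nt upstream of the last exon junction, the exceptions being TXNRD1, where it lies in the last exon, and SELENOK, where the distance is 5 nt.

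In TMM-scaled CPM, the selenoprotein messages did not move together. SELENON, TXNRD2 and GPX1 were higher with EPN24-Cas13d, SELENOF, SELENOK, SELENOT and SELENOW were lower, and GPX4, TXNRD1 and SELENOH did not pass the test (edgeR's quasi-likelihood test, adjusted p of 0.05 over 20476 genes). These are 3 higher and 4 lower of 10, where 32.6% of all tested genes were higher and 48.2% lower, so neither share sets the family apart. The median log2 fold change was -0.53 for the 10 and -0.96 for all tested genes. SELENOF, SELENOH, SELENOK and SELENOT passed the filter on low counts only through the EPN24 libraries, so their direction was in part fixed by the filter and the counts and median are no support for a group change. Per volume, with ERCC scaling, 7 were higher and 0 lower, against 58.4% and 2.33% of all tested genes. More nanocages and more RNA per nanocage cannot be told apart in such a value. By CPM the groups did not overlap for 9 of the 10 members, against 91.2% of tested genes. Per ERCC count they did not overlap for 9 of the 10 either, against 79.5%.

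**Figure D1:**
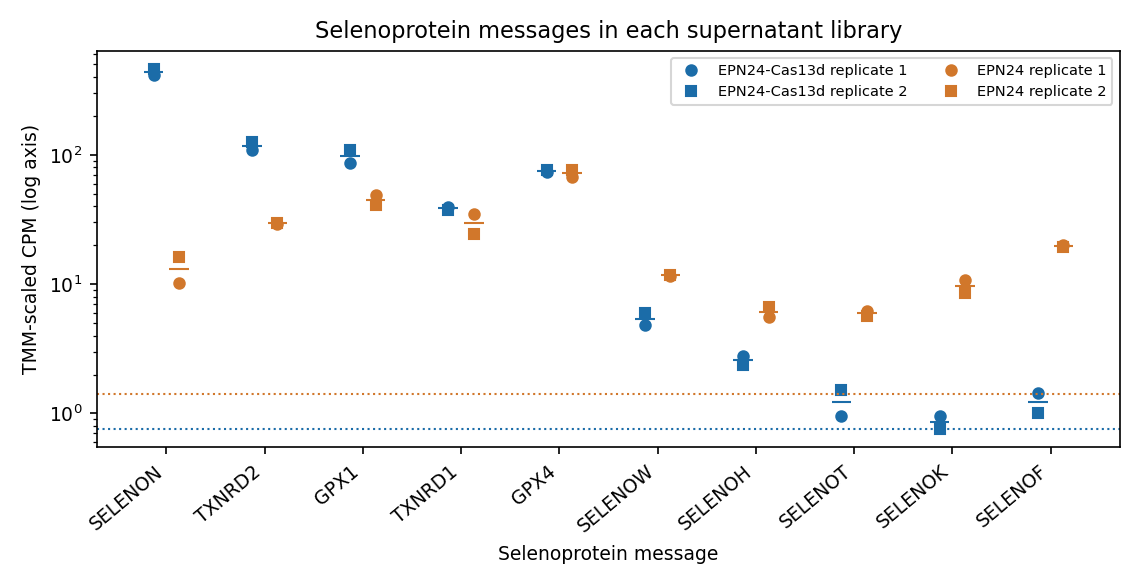
TMM-scaled CPM on a log axis for each of the 10 messages in the 4 libraries, ordered by fold change. Points are libraries, short bars are group means, and dotted lines mark the higher floor of 3 counts in each group. SELENON stands at 416 and 463 CPM with Cas13d against 10.3 and 16.1 without, GPX4 overlaps between groups, and SELENOF runs the other way.

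SELENON carried the largest change of the 10. Its protein is a glycoprotein of the endoplasmic reticulum (ER) that acts on the calcium pump SERCA, and its loss causes a congenital muscle disease. The message (ENSG00000162430.18, chromosome 1, 25800193 to 25818221, plus strand) had 1731 and 1841 counts with Cas13d and 23 and 34 without. That is 439.7 ± 33.4 against 13.2 ± 4.13 CPM (SD, n = 2 in each group), with both EPN24-Cas13d libraries far above both EPN24 libraries. The log2 fold change was 5.06 with an approximate SE of 0.19 and an adjusted p of 9.48e-12. Per 100000 ERCC counts it measured 2088 ± 220.3 against 5.96 ± 1.13, a 350.1-fold difference. SELENON shares 378 bp of exon with the same-strand gene ENSG00000255054 and 284 bp with the opposite-strand lncRNA ENSG00000228172. Those genes had 209.5 and 205.2, and 95.5 and 99.2 counts with Cas13d, and the sources used here do not say how shared reads were divided.

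The genes nearest to SELENON in level over the 4 libraries were MED22, a Mediator subunit, SMO, the Hedgehog signal transducer, and PGAP6, a phospholipase that acts on GPI anchors. Their Euclidean distances on log2(CPM + 1) over 4 libraries were 0.20, 0.26 and 0.33 among 6546 genes with a mean of at least 20 CPM. With 2 groups of 2 libraries this likeness describes little beyond a similar level and a similar fold change.

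Both thioredoxin reductases, which use NADPH to reduce thioredoxin, were abundant with Cas13d, but their proportion differed between groups. TXNRD2, the mitochondrial enzyme (ENSG00000184470.21, chromosome 22, 19875517 to 19941820, minus strand), measured 109.5 and 125.6 CPM with Cas13d and 29.2 and 29.8 CPM without. The groups were well apart, with a log2 fold change of 1.99, SE 0.18 and adjusted p of 2.39e-07. This call was lost with the GC trend removed (-0.036, adjusted p = 0.874). TXNRD1, the cytosolic enzyme (ENSG00000198431.17, chromosome 12, 104215779 to 104350307, plus strand), measured 39.4 and 37.8 CPM against 34.8 and 24.6 CPM. Its log2 fold change of 0.37, SE 0.24, did not pass (adjusted p = 0.164), although the 2 EPN24-Cas13d libraries were the higher ones. Inside a library, counts per kb of TXNRD1 were 0.440 and 0.367 times those of TXNRD2 with Cas13d, and 1.46 and 1.01 times without. The log2 ratio was lower with Cas13d by 1.59 (a difference of -1.59), whatever the scaling between libraries, but with the GC trend removed within each library the difference turned to 1.13. The two-sided exact permutation p was 0.33, and 2 against 2 libraries cannot go below that.

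The glutathione peroxidases showed a smaller gap. GPX1 reduces hydrogen peroxide in the cytosol, and GPX4 reduces lipid hydroperoxides in membranes and guards against ferroptosis. GPX1 (ENSG00000233276.8, chromosome 3, 49357176 to 49358353, minus strand) measured 86.1 and 110.0 CPM in the EPN24-Cas13d libraries against 49.1 and 40.7 CPM in the EPN24 libraries. The log2 fold change came to 1.12, SE 0.19, adjusted p = 1.42e-04. Its processed pseudogene GPX1P1 had 64 and 72 counts with Cas13d and 34 and 16 without, so the GPX1 value is uncertain by reads that the authors' counting could have placed on either. GPX4 (ENSG00000167468.19, chromosome 19, 1103994 to 1106791, plus strand) measured 73.6 and 76.5 CPM against 67.8 and 76.7 CPM. Its libraries overlapped between the groups, and its log2 fold change of 0.06, SE 0.17, did not pass (adjusted p = 0.765). In TMM-scaled CPM GPX4 was thus not detectably different, while per 100000 ERCC counts it measured 356 ± 20.5 against 33.2 ± 1.36, a 10.7-fold difference. With total counts as the scaling, edgeR called GPX4 lower (log2 fold change -0.46, adjusted p = 0.0197). Counts per kb of GPX4 were 0.516 and 0.420 times those of GPX1 with Cas13d and 0.834 and 1.14 times without. The groups did not overlap in this ratio (exact permutation p = 0.33, two-sided). Its log2 difference of -1.065 came to -0.87 with the GC trend removed, and so kept its sign, unlike that of the reductases.

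The GPX1 call rests on the setting. It was lost with a stricter filter (log2 fold change -0.081, adjusted p = 0.718), which asks for 10 counts summed over the libraries and a mean of 10 CPM. The GPX1 call was also lost with background subtracted (0.19, adjusted p = 0.477), where the median of all tested genes was -0.11. The call turned to lower with the GC trend removed (-1.09, adjusted p = 8.46e-05). GPX4 and TXNRD1 were called lower with the stricter filter (-1.15, adjusted p = 4.97e-05, and -0.83, adjusted p = 0.00779), under which 40.1% of tested genes were higher and 39.6% lower and the median of all tested genes moved from -0.96 to 0.049.

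SELENOF, SELENOK and SELENOT, whose proteins reside in the ER, were lower in TMM-scaled CPM. They entered the test only through the EPN24 libraries, where they are high, so their counts and adjusted p describe single messages and support no statement about ER selenoproteins as a class. SELENOS, another ER membrane selenoprotein, measured 9.37 and 5.03 CPM with Cas13d against 7.14 and 7.57 CPM without (log2 fold change -0.026, adjusted p = 0.963). SELENOF, a resident of the ER that binds the glycoprotein sensor UGGT, had 6 and 4 counts with Cas13d and 45 and 41 in the far shallower EPN24 libraries. It measured 1.44 and 1.01 CPM against 20.1 and 19.4 CPM (ENSG00000183291.18, chromosome 1, 86862445 to 86914424, minus strand). Its log2 fold change was -3.96, SE 0.51, adjusted p = 8.04e-06, and the summed counts of 10 against 86 gave -4.01 with a 95% exact binomial interval from -5.12 to -3.06. SELENOK, an ER membrane protein that works with the palmitoyltransferase ZDHHC6, had 4 and 3 counts against 24 and 18 (ENSG00000113811.12, chromosome 3, 53884417 to 53891885, minus strand). Its levels were 0.962 and 0.755 CPM against 10.7 and 8.52 CPM, its log2 fold change was -3.42, SE 0.71, adjusted p = 5.78e-04, and the interval from 7 against 42 counts ran from -4.89 to -2.32. SELENOT, a thioredoxin-like ER membrane protein, had 4 and 6 counts against 14 and 12 (ENSG00000198843.14, chromosome 3, 150602875 to 150630436, plus strand). It measured 0.962 and 1.51 CPM against 6.24 and 5.68 CPM. The fitted log2 difference was -2.24, SE 0.75, adjusted p = 0.0133. In each of the 3 messages both EPN24-Cas13d libraries lay below both EPN24 libraries. The filter in part fixed this order, and the groups did not overlap in CPM for 91.2% of all tested genes. SELENOT shares 61 bp with SERP1 on the opposite strand.

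These 3 messages stood at 1 to 2 times the floor in the EPN24-Cas13d libraries, so their levels there are known only within wide limits. Per volume they did not differ detectably. SELENOF measured 5.79 ± 1.29 per 100000 ERCC counts with Cas13d and 9.13 ± 1.38 without, SELENOK 4.06 ± 0.572 and 4.49 ± 1.28, and SELENOT 5.89 ± 2.01 and 2.77 ± 0.536. With ERCC scaling their log2 fold changes were -0.65, -0.13 and 1.07, turning positive for SELENOT, and none passed (adjusted p = 0.382, 0.898 and 0.275). SELENOT no longer passed once EPN24-Cas13d replicate 1, EPN24 replicate 1 or EPN24 replicate 2 was left out (adjusted p = 0.0882, 0.086 and 0.0691). The same held with the replicate number as a block (0.0531), without a filter (0.0766) and with the DESeq2 Wald test (0.169), and with the GC trend removed the value was 0.24 (0.796).

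SELENOW and SELENOH, 2 further thioredoxin-like proteins, lay between. SELENOW, a small cytosolic protein abundant in muscle (ENSG00000178980.16, chromosome 19, 47778677 to 47784686, plus strand), had 20 and 23.8 counts against 26 and 25, or 4.81 and 6.00 CPM against 11.6 and 11.8 CPM. Its log2 fold change of -1.11, SE 0.45, just passed (adjusted p = 0.0357). It turned to 2.24 with ERCC scaling (adjusted p = 8.35e-04), and was not called without EPN24-Cas13d replicate 1 or 2 (adjusted p = 0.215 and 0.0999), with the replicate block (0.066), without a filter (0.237) or with the DESeq2 Wald test (0.34). SELENOH, a nucleolar protein (ENSG00000211450.11, chromosome 11, 57741491 to 57743554, plus strand), had 11.5 and 9.5 counts against 12.5 and 14 and measured 2.76 and 2.39 CPM against 5.58 and 6.63 CPM. Its difference of -1.13 on the log2 scale, SE 0.65, did not pass (adjusted p = 0.118). With ERCC scaling it was higher by 2.21 (adjusted p = 0.00975). SELENOH shares 429 bp, or 20.8% of its length, with the same-strand gene ENSG00000254732, which had 87.5 and 89.2 counts with Cas13d and 23.5 and 30.7 without, and reads common to both could not be assigned.

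**Figure D2:**
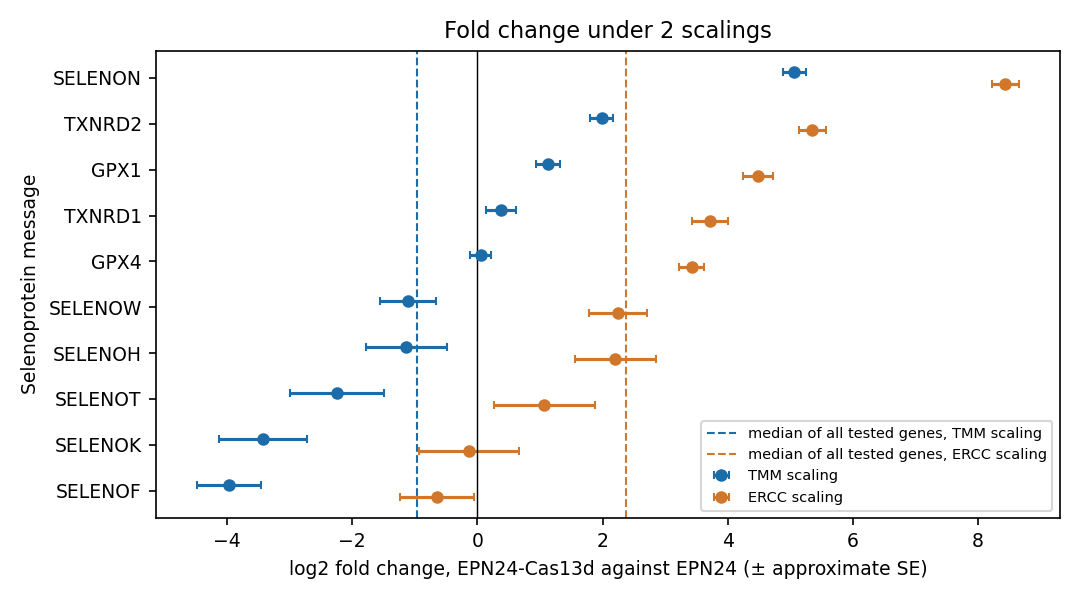
The log2 fold change of EPN24-Cas13d against EPN24 for each message, with its approximate SE, under TMM scaling (blue) and ERCC scaling (orange). Dashed lines are the medians of all tested genes, -0.96 and 2.38. The order of the 10 messages, from SELENON down to SELENOF, is the same in both scalings, because the change of scaling shifts every message by nearly the same amount.

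Per kb of exon the order of the messages differed between the groups. With Cas13d the order ran from SELENON (99.9 CPM per kb) through GPX1 (83.2), GPX4 (38.5), TXNRD2 (14.3) and TXNRD1 (5.75), with no overlap between neighbours in these 5. SELENOH (1.25) overlapped with SELENOW (1.05), and SELENOF (0.556), SELENOK (0.418) and SELENOT (0.301) overlapped with one another in turn. Without Cas13d GPX1 (38.1) and GPX4 (37.0) led and overlapped, SELENOF (8.97) followed, SELENOK (4.68) and TXNRD1 (4.43) overlapped, and SELENON (2.99) stood below these, overlapping with TXNRD2 (3.60) and SELENOH (2.96). The deposited length joins the exons of all isoforms, so levels of genes with many isoforms, such as TXNRD2 with 8201 bp, are understated.

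Of all counts on the 10 messages, SELENON took 56.6% and 56.2% with Cas13d but 4.18% and 6.71% without. GPX4 took 10.0% and 9.28% against 27.6% and 32.0%, and SELENOF 0.196% and 0.122% against 8.18% and 8.09%. The sum itself was 3060 and 3277 counts with Cas13d and 550 and 507 counts without.

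**Figure D3:**
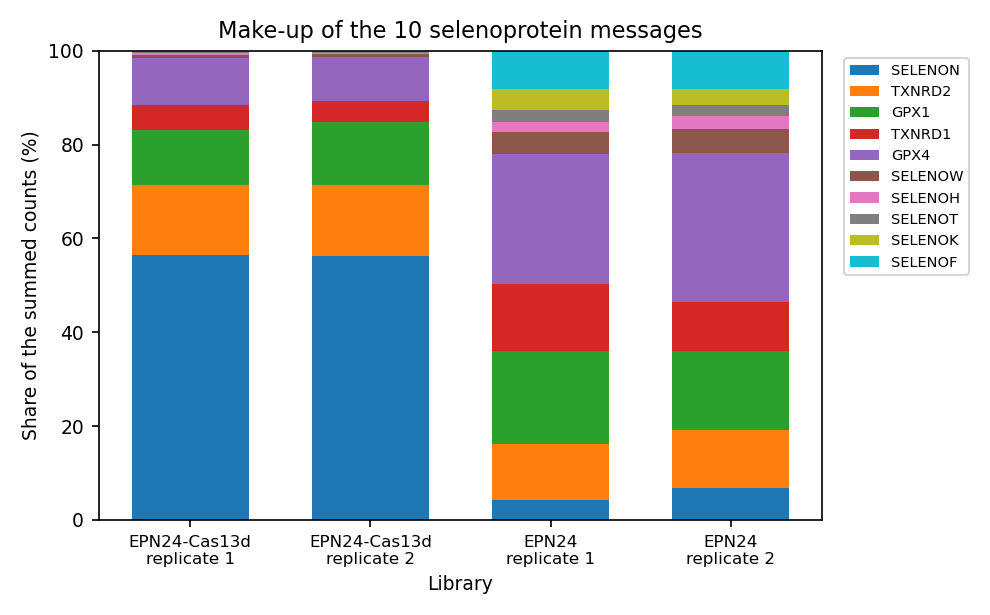
Share of each message in the summed counts of the 10 selenoprotein messages, as a stacked bar for each library. SELENON fills 56.6% and 56.2% of the EPN24-Cas13d bars and 4.18% and 6.71% of the EPN24 bars.

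How far a level stood above unspecific signal was read from 361 olfactory receptor genes, known chiefly for their use in olfactory neurons. They had 0.179 and 0.141 counts per kb with Cas13d, against 1.85 and 1.44 without. In EPN24, GPX1 and GPX4 stood at 50.7 and 49.0 times the mean of that density, SELENOF at 11.9, SELENOK at 6.22, TXNRD1 at 5.90, TXNRD2 at 4.77, SELENON at 3.94, SELENOH at 3.91, SELENOW at 3.01 and SELENOT at 1.93 times. In EPN24-Cas13d the lowest member, SELENOT, stood at 7.61 times and SELENON at 2532.8 times. The EPN24 values of SELENON, SELENOH, SELENOW and SELENOT are therefore the ones least separated from this signal. With it subtracted, SELENON remained higher at a log2 fold change of 4.51 (adjusted p = 9.80e-06), as did TXNRD2 at 1.38 (adjusted p = 0.00119). SELENOF, SELENOK, SELENOT, SELENOW and SELENOH were lower, and GPX4 was also lower (-0.87, adjusted p = 0.00287). Of the 15666 genes tested in that way 33.9% were higher and 36.7% lower. The median log2 fold change of the tested genes moved from -0.96 in the main test to -0.11. The log2 difference of GPX4 to GPX1 between the groups was -1.065 both with and without the subtraction.

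GC content of the longest transcript moved with the fold change. The longest transcripts of the 3 higher messages held 59.8% GC in SELENON, 62.6% in TXNRD2 and 64.2% in GPX1, and those of the 3 lowest held 37.5% in SELENOF, 42.8% in SELENOK and 35.3% in SELENOT. GPX4, with 62.5%, was not higher. Over the 10 messages Pearson's r between GC content and log2 fold change was 0.76 (Spearman's rho 0.78), and over the 21 tested of 25 annotated selenoprotein genes it was 0.67 (rho 0.74). For the coding sequence alone r was 0.65 (rho 0.50) over the 10 and 0.55 (rho 0.535) over the 21. SELENOF, SELENOH, SELENOK and SELENOT, and GPX6, DIO1 and DIO2 among the 21, passed the filter only through EPN24. Their direction was in part fixed by the filter, so these values of r may be in part built in. The mean log2 CPM of the 10 moved with the fold change as well (r 0.83, rho 0.83). That mean includes the EPN24-Cas13d libraries, which also enter the fold change, so this relation is in part built in. These genes share the same 4 libraries, so the values are descriptions, and the part of GC content or level in the fold changes was not tested. Among all 19924 tested genes with a GC value r was 0.46, with a median log2 fold change of -3.05 below 40% GC and 1.94 at 60% GC and above. Of the 10, 8 lay within the middle 50% of tested genes of like GC content, and SELENON and TXNRD1 lay above it. With the GC trend removed SELENON remained higher (3.44) and TXNRD1 was higher (1.07, adjusted p = 7.05e-04), while GPX4 came to -1.95 (adjusted p = 1.17e-08). With that trend removed 29.4% of all tested genes were higher and 41.2% lower.

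**Figure D4:**
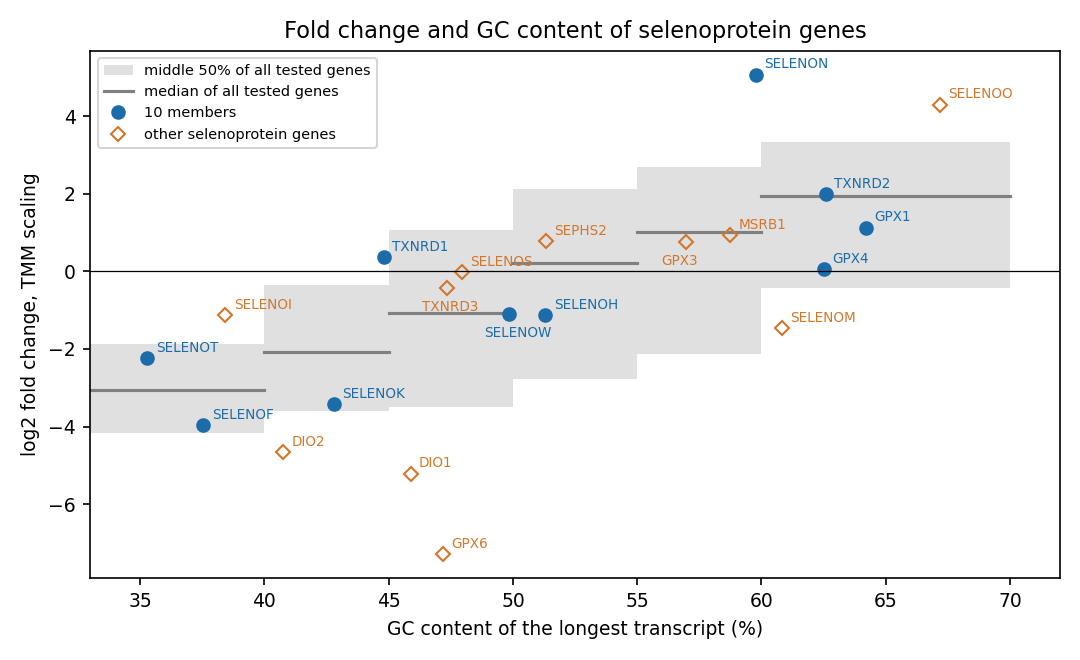
The log2 fold change with TMM scaling against the GC content of the longest transcript, for the 10 members (blue, filled) and the other tested selenoprotein genes (orange, open). Grey bars and lines give the middle 50% and the median of all tested genes per GC range. SELENON and TXNRD1 lie above the grey bar of their range, and the point of GPX6, which had 0 counts in both EPN24-Cas13d libraries, is a fitted value.

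Of the other 15 human selenoprotein genes 11 were tested, and 3 were higher, 4 lower and 4 not called, with a median log2 fold change of -0.43. Among the lower ones, GPX6, DIO1 and DIO2 had 0 to 2 counts in each EPN24-Cas13d library. They passed the filter on low counts only through EPN24, so their direction was in part fixed by the filter. The lists that follow hold such genes too, for example PSTK with 2 and 0 counts with Cas13d. With ERCC scaling 8 were higher and 0 lower. For this list and those that follow, the shares over all tested genes were 32.6% higher and 48.2% lower, or 58.4% and 2.33% with ERCC scaling, and nothing particular to a list is read from its counts. SELENOO, a mitochondrial pseudokinase that adds AMP to proteins, measured 195 ± 6.34 against 10.1 ± 6.44 CPM, higher by 4.29 on the log2 scale (adjusted p = 1.61e-09). SEPHS2, which makes the selenium donor for selenocysteine and carries one itself, measured 58.9 ± 5.04 against 34.7 ± 9.90 CPM, higher by 0.77 (adjusted p = 0.00637). Another 2 ratios set a member against a message of this list. Counts per kb of SELENOF were 0.395 and 0.193 times those of its relative SELENOM with Cas13d and 1.48 and 1.80 times without. Those of SELENOK were 0.188 and 0.274 times those of SELENOS with Cas13d and 2.74 and 2.06 times without. Neither ratio overlapped between groups, and the log2 differences were -2.56 and -3.39. With the GC trend removed they were 1.35, a turn of direction, and -2.57. SELENOW to SELENOT went from 1.48 and 1.66 without Cas13d to 3.98 and 3.16 with it, and SELENOH to SELENOT from 1.77 and 2.32 to 5.72 and 3.15. These log2 differences of 1.18 and 1.06 turned to -1.41 and -1.80 with the GC trend removed. SELENOF, SELENOK, SELENOH and SELENOT passed the filter only through EPN24, with 3 to 11.5 counts in each EPN24-Cas13d library. The direction of the ratios that hold them was thus in part fixed, and these ratios are no support for a group change. All 6 ratios computed had an exact permutation p of 0.33, two-sided, also after Benjamini-Hochberg adjustment.

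A further list held genes of selenocysteine synthesis and insertion, proteins known to bind SECIS elements and the selenoprotein P receptors LRP2 and LRP8. Of its 13 tested genes 6 were higher, 6 lower and 1 not called (median log2 fold change -0.33). EEFSEC measured 167 ± 3.17 against 13.6 ± 2.20 CPM, higher by 3.62 on the log2 scale (adjusted p = 4.76e-10). NCL, nucleolin, an abundant nucleolar protein that also binds SECIS elements, measured 39.6 ± 1.15 against 537 ± 122 CPM (-3.76, adjusted p = 5.37e-11), and with ERCC scaling did not pass (-0.38).

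Of 26 tested thiol redox genes without selenocysteine 10 were higher, 9 lower and 7 not called (median -0.32), led in abundance by TXNDC5, a protein disulfide isomerase of the ER, at 392 ± 0.272 against 14.0 ± 1.52 CPM (4.80, adjusted p = 4.84e-12), and SOD2, the mitochondrial superoxide dismutase, at 90.8 ± 7.98 against 45.8 ± 8.35 CPM (0.98, adjusted p = 3.45e-04). Of 11 tested NRF2 and ferroptosis genes 6 were higher and 4 lower (median 0.46). SLC3A2, the partner chain of the cystine transporter, measured 615 ± 7.32 against 77.6 ± 2.58 CPM (2.99) and KEAP1, the inhibitor of NRF2, 434 ± 16.7 against 27.3 ± 0.827 CPM (3.99). Of 11 partners of ER selenoproteins 4 were higher and 5 lower (median -0.11), with the segregase VCP at 509.5 ± 28.7 against 47.5 ± 2.81 CPM (3.43) and the calcium pump gene ATP2A2, which encodes the SERCA pump on which SELENON acts, at 450.7 ± 25.9 against 57.3 ± 5.99 CPM (2.98). For SLC3A2, KEAP1, VCP and ATP2A2 edgeR's adjusted p ran from 8.27e-12 to 8.07e-11. Genes were named by a mean CPM that includes the EPN24-Cas13d libraries, so their directions do not stand for their lists. The 4 lower NRF2 and ferroptosis genes were ACSL4 (-2.79), FTH1 (-2.35), SLC7A11 (-2.18) and NFE2L2 (-2.10). The 5 lower ER partners were RYR1 (-3.02), UGGT2 (-2.56), DERL2 (-1.76), DERL1 (-1.62) and ZDHHC6 (-0.97). With ERCC scaling the lists held 8, 19, 9 and 9 higher genes in the order given, and 0 lower.

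In the authors' deposited table the log2 fold changes of the members were close to those with ERCC scaling here: 8.42 for SELENON, 5.32 for TXNRD2, 4.44 for GPX1, 3.67 for TXNRD1 and 3.39 for GPX4. In that authors' deposited table SELENOW stood at 2.21 and SELENOH at 2.19 with adjusted p of 0.0029 and 0.0193. SELENOT (1.04), SELENOK (-0.18) and SELENOF (-0.69) did not pass in the authors' deposited table, with adjusted p of 0.669, 0.992 and 0.772. Of the 39794 genes with an adjusted p there, 30.5% were higher and 0.201% lower at 0.05.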

How the data were processed

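Supernatant RNA of 4 libraries was analysed. Per the labels' protocols, 200 µl of supernatant, passed through a 0.45 µm filter, received ERCC RNA before extraction, and libraries had 17 PCR cycles and 150-nt read pairs, with no molecular identifiers named. Per the submitters' processing notes, the builds hg38 and GRCh38 and the tools STAR 2.7.10a, featureCounts 2.0.1 and DESeq2 1.36.0 were used, with FastQC 0.11.9 and Trim Galore 0.6.7. The sources used here give no strand or multi-mapping setting, so overlapping genes and paralogs were not resolved.

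The authors deposited expected counts, that is read counts of which 7.82% to 9.19% per library were not whole, with a length in bp per gene (another unit). Their second deposited table holds a mean normalized count (signal), p-values, a Wald statistic (score) and a log2 fold change with its SE. Of 61640 rows, 5 broken pieces of a single gene's row were left out.

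The test was edgeR 4.0.16 under R 4.3.3 on rounded counts (filterByExpr, TMM without the 92 ERCC rows, robust quasi-likelihood test, Benjamini-Hochberg adjustment, threshold 0.05). CPM and counts per ERCC count used the values as deposited, and ± is the SD of 2 libraries. SEs are approximate, the size of the log2 fold change over the root of its F statistic. The binomial intervals are exact (95%). GC content was that of the longest GENCODE transcript of a gene ID, found for 97.3% of tested genes, and its trend and the length trend were removed by lowess within each library. Background was subtracted at the olfactory receptor density per kb. Replicates of a group differed by more than sampling noise (chi-square per degree of freedom 2.39 and 3.39, or 1.20 and 1.69 with counts halved). The test was tried on simulated data with known changes in few genes, balanced in direction. In the real data most tested genes were called, so that trial does not carry over to them.

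The members and lists were chosen with earlier results of these data known. All 10 members are named, with the 2 tested genes of highest mean CPM in each of 5 further lists, and the 3 genes of at least 20 CPM nearest to the most abundant member. Alternatives were DESeq2 1.42.0 size factors and Wald test, limma-voom (limma 3.58.1), total counts, ERCC scaling, no filter, at least 10 counts and 10 CPM, a replicate block, each library left out, counts halved, the GC and length trends removed, and background subtracted. The GC and length trends were added for the ratios after seeing the data.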

Additional observations from a re-analysis of the deposited data

How the results depend on the processing

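SELENON was higher under all 16 alternatives (log2 fold change 3.44 to 8.43). Over the 10 members 117 values kept direction and call, 14 lost the call, 8 gained it and 17 changed sign. The cause of these changes was not tested, except that the stricter filter tests fewer genes. Sign changes with ERCC scaling were SELENOW 2.24, SELENOH 2.21 and SELENOT 1.07. With the GC trend removed they were GPX1 -1.09, GPX4 -1.95, TXNRD2 -0.036 and SELENOT 0.24. With the stricter filter, which left 6 members, they were GPX1 -0.081, GPX4 -1.15 and TXNRD1 -0.83. For GPX4 and TXNRD1 they were -0.46 and -0.15 with total counts, -0.34 and -0.028 with counts halved, and -0.87 and -0.33 with background subtracted. Leaving out each library gave GPX4 -0.17 (without EPN24 replicate 1) to 0.15.

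With ERCC scaling, selenoprotein messages called were 7 higher and 0 lower, other selenoproteins 8 and 0, thiol redox genes 19 and 0, ER partners 9 and 0, and machinery and NRF2 genes 0 lower. For ERCC scaling, the GC trend removed, the stricter filter and background subtracted, the shares over all tested genes are given above. The DESeq2 Wald test called 2 members, 3 machinery, 4 thiol redox and 2 ER partner genes lower, where 6766 of 49197 tested genes were lower. With no filter 2 members were lower, where 11046 of 49197 tested genes were lower. With the GC trend removed 1 other selenoprotein was higher, and 5 thiol redox and 2 ER partner genes were lower. The stricter filter left 1 other selenoprotein higher and 2 lower, 3 machinery and 2 thiol redox genes higher. With background subtracted 1 other selenoprotein, 3 machinery and 4 thiol redox genes were higher and 3 ER partners lower, and the log2 differences of SELENOW to SELENOT and SELENOK to SELENOS were 0.88 and -3.95. With the GC trend removed, chosen for the ratios after seeing the data, 4 of the 6 ratios changed sign: the log2 differences were TXNRD1 to TXNRD2 1.13, SELENOF to SELENOM 1.35, SELENOW to SELENOT -1.41 and SELENOH to SELENOT -1.80. SELENOK to SELENOS came to -2.57 and GPX4 to GPX1 to -0.87. Total counts and counts halved each left 1 other selenoprotein higher, where 5676 of 20476 and 5859 of 15289 tested genes were higher. With total counts 6 members were lower, where 11043 of 20476 tested genes were lower. GPX4 and SELENOH were among these 6 (edgeR's adjusted p = 0.0197 and 0.032).

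Leaving out each library gave log2 fold changes of 4.63 to 5.34 for SELENON, 1.84 to 2.15 for TXNRD2 and 0.92 to 1.36 for GPX1. SELENOF came to -4.17 to -3.67, SELENOK to -3.66 to -3.20, SELENOT to -2.514 to -1.885 and SELENOW to -1.26 to -0.88. Each of these fits has 1 library in 1 group, so no counts of calls are given for them. In these leave-outs the 6 ratios kept their sign, with TXNRD1 to TXNRD2 at -1.86 to -1.33 and GPX4 to GPX1 at -1.29 to -0.84. A lone library is assumed to vary like the other group.

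Same-numbered libraries did not deviate together (correlation -0.004 over 6551 genes). The labels do not say whether they share a culture or a preparation, and this correlation cannot decide it. With the replicate block 2 members were lower instead of 4, where 8496 of 20476 tested genes were lower instead of 9871.

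Depth limits SELENOF, SELENOK and SELENOT most, with 3 to 6 counts in each EPN24-Cas13d library.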
